A study of Mus musculus with 9 samples.

Results

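The nuclear pore and its transport machinery were followed through 64 probe sets of 34760 on the array, which named 53 genes of the 19937 that carried a single gene symbol. Members were chosen by gene symbol: nucleoporins (Nup and a number), importins and transportins (Kpna, Ipo or Tnpo and a number, with Kpnb1), exportins (Xpo and a number, with Cse1l), the Ran cycle genes Ran, Rangap1, Ranbp1, Ranbp2 and Rcc1, and the pore genes Seh1l, Sec13, Rae1, Ndc1 and Pom121. The family was selected on the control against hairpin comparison of these same arrays, so differences from the control are given as a description, with calls but no p-values, and support nothing. Tpr, a nuclear basket protein, had no probe set of its own symbol and was not analysed here. Most genes had 1 probe set, but Kpna2 had 3, Rae1 had 2 and Nup210l had 9. A gene with several probe sets was counted through the one with the highest mean level.

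The cells were RN2, murine acute myeloid leukaemia cells that carry MLL-AF9 and NrasG12D, in which 3 separate hairpins against Brg1 (Brg1sh_3232, Brg1sh_3364 and Brg1sh_4935) were expressed from the doxycycline-inducible TRMPV vector. Each hairpin had 2 arrays, and a TRMPV hairpin against Renilla luciferase (Rluc), a gene that mouse cells lack, served as the control with 3 arrays. All 4 groups received 1 ug/ml doxycycline for 96 h, so the drug was shared by control and knockdown cells. The cell line entry of the control arrays alone also carried the name TtTMPV, and any difference that this name stands for cannot be told apart from the hairpin. The labels do not say whether arrays of a group came from separate cultures, so the tests measure the spread between these arrays, which may be technical. The study asked what lies downstream of Brg1, the ATPase of the SWI/SNF chromatin remodelling complex, in these leukaemia cells.

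Nuclear pores are large rings set in the nuclear envelope, through which proteins and RNA pass between nucleus and cytoplasm. Structural rings hold a central channel of disordered, phenylalanine-glycine rich nucleoporins, and carriers of the karyopherin family cross it with their cargo. The small GTPase Ran gives the direction: Rcc1 loads it with GTP in the nucleus, and Rangap1 with Ranbp1 or Ranbp2 triggers hydrolysis in the cytoplasm, so importins release cargo inside and exportins release it outside. In blood cancers the family is known through NUP98 and NUP214 fusion genes and through drugs against the exportin XPO1.

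The targeted gene was lower in every knockdown array than in every control array. Smarca4, which encodes Brg1, measured 11.79 ± 0.01 (SD, n = 3) on the log2 scale with Rluc and 10.77 ± 0.08 (SD, n = 6) over the knockdown arrays, with differences from -1.05 to -0.99 over the 3 hairpins. Array medians lay between 7.39 and 7.49, and correlations over all probe sets were 0.996 to 0.997 within groups and 0.989 to 0.995 between them. Of 12 myeloid markers of the line, 5 were called higher and 4 lower in the mean of the hairpins. Summed linear signals of 6 lymphoid markers were 466 to 479 with Rluc and 459 to 501 with the hairpins, and limma called 0 of 6 in the mean or with any hairpin. At an unadjusted p under 0.05, 0 of 6 passed in the mean and with Brg1sh_3232 and Brg1sh_4935, and 1 with Brg1sh_3364. Of 6 erythroid and megakaryocyte markers 0 were called in the mean (1 at the unadjusted threshold), but 1, Gp9, was called higher with Brg1sh_3364, at 0.69. The summed signal of the erythroid and megakaryocyte markers was 1138 to 1445 with Rluc, 1237 to 1678 with the hairpins and 1676 to 1678 with Brg1sh_3364. In the mean 1 of 7 stromal, endothelial and epithelial markers, Pecam1, was called higher. The summed signal of these 7 was 4141 to 4374 with Rluc and higher, at 5089 to 6423, with the hairpins.

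Most pore and transport genes had lower signals in the knockdown arrays, and none was called higher. A probe set was called where limma's adjusted p, over the 21640 probe sets with 1 symbol, was under 0.05. With Brg1sh_3232, 26 of the 64 probe sets were called lower, where 10.8% of all probe sets were. With Brg1sh_3364 the count was 36, where 12.1% of all were lower, and with Brg1sh_4935 it was 37, where 12.0% were. In the mean of the 3 hairpins 39 were lower, where 14.7% of all probe sets were. No member was called higher in any of these 4 comparisons, and 0 did so at an unadjusted p under 0.05, while 9.09%, 13.2%, 9.32% and 12.7% of all probe sets were called higher, in the same order. Adding a trend and robust option to limma also gave 0.

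The counts for single hairpins were smaller in some fits with an array left out, and such fits also hold fewer arrays. The Brg1sh_3232 count was 17 without its replicate 2, and also 17 when only Brg1sh_3232 and Rluc were fitted. The Brg1sh_3364 count was 19 without its replicate 2 and 21 without its replicate 1, and the Brg1sh_4935 count was 24 without its replicate 1. The count in the mean of the hairpins was 34 to 41 when each array was left out in turn.

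By gene, 24 of 53 were lower with Brg1sh_3232, 34 with Brg1sh_3364, 32 with Brg1sh_4935 and 37 in the mean. The median log2 difference over the 53 genes was -0.18 with Brg1sh_3232, -0.21 with Brg1sh_3364 and -0.25 with Brg1sh_4935, against 0.00, -0.01 and 0.00 over all named probe sets. In the mean of the hairpins the median was -0.21, a signal of 86.2% of the control. Values below 0 were found for 45, 49 and 50 of the 53 genes, in the same order of hairpins, where 48.6%, 54.3% and 50.4% of all probe sets lay below 0. In these bulk samples, fewer cells of a type and less RNA per cell cannot be told apart. All 6 knockdown arrays lay below all 3 Rluc arrays for 36 of the 64 probe sets, where 12.0% of all probe sets did so. The genes called lower in the mean whose arrays overlapped were Xpo7, Ipo7 and Nup210.

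**Figure D1:**
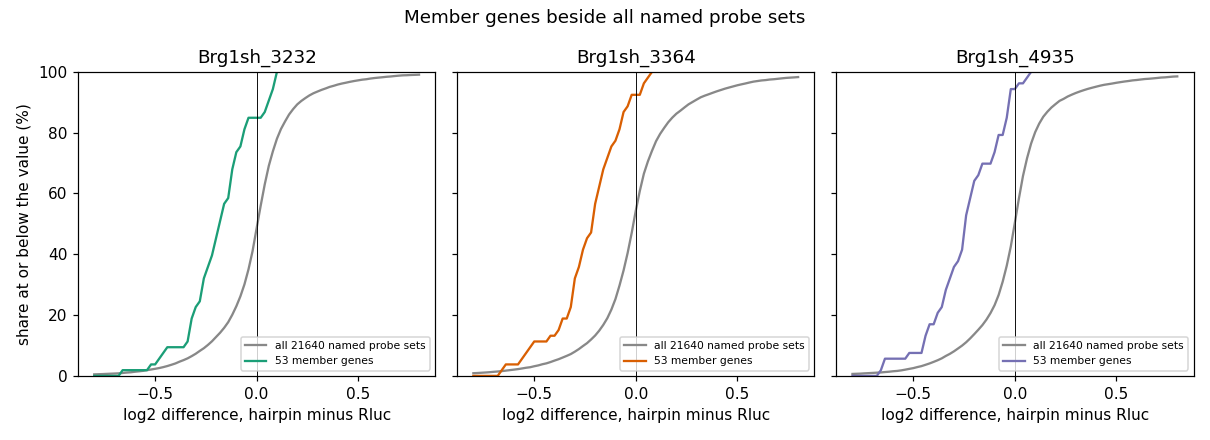
Cumulative share (%) of the 53 member genes (coloured, 1 probe set each) and of all 21640 named probe sets (grey) at or below each log2 difference from Rluc, 1 panel per hairpin. The coloured curves lie left of the grey ones in all panels, with 84.9%, 92.5% and 94.3% of the genes below 0 against 48.6%, 54.3% and 50.4% of all probe sets.

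The family was also bright, which bears on how often a probe set is called. Of the 53 genes, 51 lay at or above the median level of 7.81 of all named probe sets, and only Nup62cl and Kpna7 lay below it. When probe sets below that level were left out before the fit, 29.5% of those remaining were called lower in the mean of the hairpins, and 38 of 57 members were.

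Promoters are shown for 4 members: Nup107, Xpo5 and Ran, which were among the 6 genes with the largest mean differences, and Nup210, which differed between hairpins. Ipo5 and Ndc1 were also among those 6, and their promoters are not printed. Nup43, the remaining gene of the 6, had no matched promoter. Each line holds the 250 bases before the start of the gene in RefSeq on GRCm38.p6, 5' to 3' along the strand of the gene, with motif matches in capitals. Nup107 lies at chr10:117792706-117792955 (minus strand), Xpo5 at chr17:46202561-46202810 (plus), Ran at chr5:129019906-129020155 (plus) and Nup210 at chr6:91116827-91117076 (minus).
Nup107: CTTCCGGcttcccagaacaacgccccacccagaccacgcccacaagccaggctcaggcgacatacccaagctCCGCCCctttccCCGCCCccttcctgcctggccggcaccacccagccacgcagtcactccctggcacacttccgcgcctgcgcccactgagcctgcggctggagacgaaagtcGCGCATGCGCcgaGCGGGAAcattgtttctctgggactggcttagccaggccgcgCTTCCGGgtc
Xpo5: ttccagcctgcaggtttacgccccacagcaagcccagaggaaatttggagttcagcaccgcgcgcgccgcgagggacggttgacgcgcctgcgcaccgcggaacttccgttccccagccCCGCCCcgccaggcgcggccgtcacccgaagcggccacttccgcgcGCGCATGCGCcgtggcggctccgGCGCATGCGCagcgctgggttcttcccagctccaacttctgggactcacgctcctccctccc
Ran: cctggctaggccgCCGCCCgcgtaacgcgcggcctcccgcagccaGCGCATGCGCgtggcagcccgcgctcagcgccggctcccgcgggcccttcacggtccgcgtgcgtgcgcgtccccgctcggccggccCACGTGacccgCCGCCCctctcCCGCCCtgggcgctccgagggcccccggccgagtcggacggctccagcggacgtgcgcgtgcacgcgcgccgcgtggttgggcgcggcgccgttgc
Nup210: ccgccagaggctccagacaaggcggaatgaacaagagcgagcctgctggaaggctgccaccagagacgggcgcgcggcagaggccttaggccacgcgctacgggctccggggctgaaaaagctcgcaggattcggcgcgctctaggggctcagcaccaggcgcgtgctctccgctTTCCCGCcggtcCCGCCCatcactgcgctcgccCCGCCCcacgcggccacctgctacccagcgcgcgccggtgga
The capitals mark any of 7 short motifs on either strand: the E-box CACGTG, the box CCAAT, the GC box GGGCGG, the E2F-type GCGGGAA, the ETS-type CCGGAAG, the NRF1-type GCATGCGC and the cyclic AMP response element TGACGTCA. Where the run GCGCATGCGC appears, the NRF1-type motif is read on both strands at once.

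Promoters matched 43 of the 53 genes, and 27025 genes of the annotation gave the background. The GC box was in 30 of 43 (69.8%) where 35.4% of all genes hold it, CCAAT in 20 (46.5%) where 37.5% do, and the NRF1-type motif in 6 (14%) where 2.56% do. Those 6 were Nup107, Xpo5, Ran, Ranbp1, Nup62 and Nup50. Ipo5 and Ndc1, with larger mean differences than Xpo5 and Ran, hold no NRF1-type motif in these bases. The printed promoters of Nup107, Xpo5 and Ran all hold it, and so are not typical of the 43 genes, of which 6 do. The E-box, the motif bound by Myc with its partner Max, was in 7 (16.3%) where 6.86% hold it: Ran, Nup54, Nup93, Ipo7 and Nup188, with Tnpo2 and Ranbp2, which were not called. The ETS-type motif was in 7 (16.3%) where 7.83% hold it, the E2F-type motif in 5 (11.6%) where 4.38% do, and the cyclic AMP element in 2 (4.65%) where 1.77% do. Of the printed promoters, that of Ran alone holds an E-box, and those of Nup107 and Nup210 hold the E2F-type motif. A match is a description of the sequence and not a bound site. The background took in genes of any level, while most members are bright, and what this does to the shares was not tested. Among the 30 genes called lower in the mean and the 13 not called, the E-box was in 16.7% and 15.4%. The ETS-type motif was in 16.7% and 15.4%, CCAAT in 40% and 61.5%, and the GC box in 73.3% and 61.5%. The E2F-type motif was in 16.7% and 0%, the NRF1-type in 20% and 0%, and the cyclic AMP element in 3.33% and 7.69%.

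The outer ring, or Y complex, the scaffold that coats both faces of the pore, was lower nearly throughout. Of its 8 genes, 7 were called lower with each of the 3 hairpins, with a median of -0.28 in the mean. Over all probe sets, 10.8% were called lower with Brg1sh_3232, 12.1% with Brg1sh_3364, 12.0% with Brg1sh_4935 and 14.7% in the mean. These shares stand beside every count by role that follows. Nup107, the scaffold protein that gives the complex its other name and whose promoter holds the NRF1-type motif, measured 10.88, 10.86 and 10.94 with Rluc, 10.38 and 10.07 with Brg1sh_3232, 10.38 and 10.28 with Brg1sh_3364, and 10.23 and 10.21 with Brg1sh_4935. Every knockdown array lay below every control array, at a mean difference of -0.64 (SE 0.07), or 64.3% of the control signal. Nup43, a beta-propeller subunit of the ring, measured 10.54, 10.45 and 10.63 with Rluc, 10.01 and 10.00 with Brg1sh_3232, 9.96 and 9.79 with Brg1sh_3364, and 9.95 and 9.82 with Brg1sh_4935. Its groups did not overlap either, and its mean difference was -0.62 (SE 0.06). Next in size were Nup133, a stem subunit of the ring, at -0.30 (SE 0.04), and Nup160 at -0.29 (SE 0.04). Nup85 and Nup37 were both at -0.28, and Seh1l, which the ring shares with a nutrient-sensing complex, was at -0.21. Sec13, which also serves in the COPII coat of secretory vesicles, was the one outer ring gene not called, at -0.11 (SE 0.05).

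**Figure D2:**
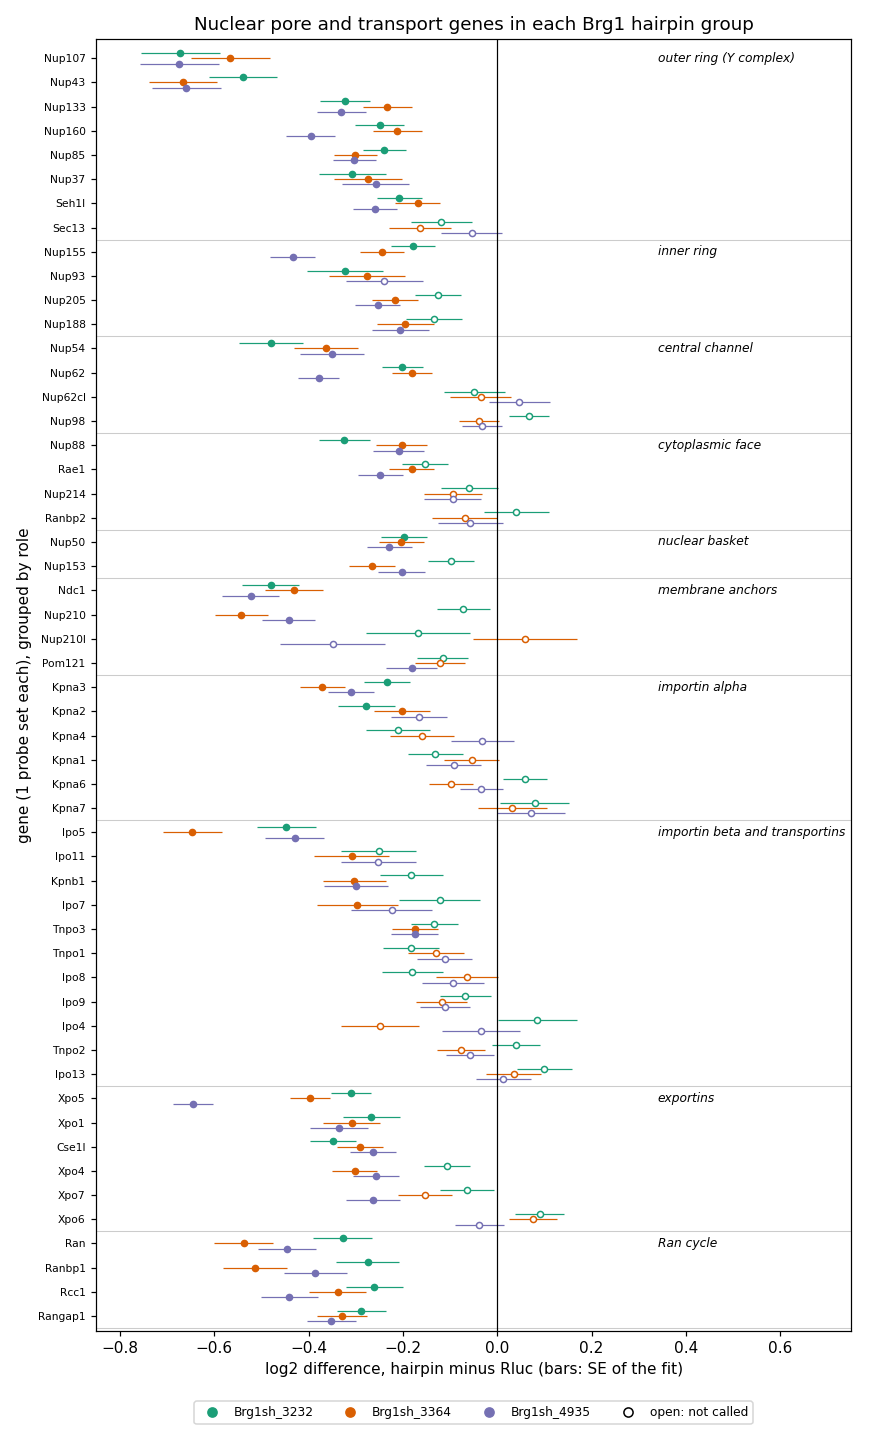
Log2 difference from Rluc for each of the 53 genes (1 probe set each) with Brg1sh_3232, Brg1sh_3364 and Brg1sh_4935, grouped by role. Points are fitted differences, bars are standard errors of the fit, filled points were called at a limma adjusted p under 0.05 and open points were not. Filled points lie only left of 0, and the largest differences belong to Nup107, Nup43, Ipo5 and Xpo5.

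The inner ring, which joins the scaffold to the channel, had 4 measured genes, and all 4 were called lower in the mean. They were Nup155 at -0.29 (SE 0.04), Nup93 at -0.28 (SE 0.06), Nup205 at -0.20 (SE 0.04) and Nup188 at -0.18 (SE 0.05). Nup155 and Nup93 were called with Brg1sh_3232, and all 4 with Brg1sh_3364, while Nup93 was not called with Brg1sh_4935. The membrane anchors, which hold the ring in the envelope, had a median of -0.25, with 3 of 4 genes lower in the mean. Ndc1, a membrane-spanning nucleoporin, measured 11.69, 11.73 and 11.78 with Rluc, 11.32 and 11.19 with Brg1sh_3232, 11.33 and 11.28 with Brg1sh_3364, and 11.28 and 11.15 with Brg1sh_4935. No knockdown array reached the control, and the mean difference was -0.48 (SE 0.05). Nup210 at -0.35 (SE 0.04) differed between hairpins, as described further on. Pom121, an anchor needed for new pores, was at -0.14 (SE 0.04) in the mean but was called with Brg1sh_4935 alone. Nup210l, a relative of Nup210 best known in testis, lay on both sides of the median level of 7.81, with Rluc means of 7.11 to 8.81 over its 9 probe sets. Of these 1 was called lower with Brg1sh_3232, 0 with Brg1sh_3364 and 3 with Brg1sh_4935, where they reached -0.53, and 0 in the mean.

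The channel and the outward and inward faces were more mixed. In the central channel Nup54 and Nup62, partners in the complex that lines the channel, were called lower with each hairpin, at -0.40 (SE 0.05) and -0.25 (SE 0.03) in the mean. Nup98, a mobile channel protein and a fusion partner in leukaemia, measured 11.96, 11.92 and 11.92 with Rluc, 12.02 and 11.99 with Brg1sh_3232, 11.91 and 11.89 with Brg1sh_3364, and 11.93 and 11.88 with Brg1sh_4935. The Brg1sh_3232 arrays lay above the control range, the Brg1sh_3364 arrays lay below it, and the Brg1sh_4935 arrays overlapped it. Differences were 0.07, -0.04 and -0.03 in that order, and none was called. The mean difference thus averages opposite signs, and its 95% interval ran from -0.08 to 0.07. Nup62cl, at a Rluc level near 5.06, was not called. On the cytoplasmic face, Nup88 was lower with each hairpin, at -0.25 (SE 0.04) in the mean, and Rae1, an mRNA export factor, was at -0.19 (SE 0.04), with its other probe set at -0.23. Nup214, the partner of Nup88, was at -0.08 (SE 0.05), and Ranbp2, which forms the cytoplasmic filaments, was at -0.03 (SE 0.05), and neither was called. In the nuclear basket Nup50 was lower with each hairpin, at -0.21 (SE 0.04) in the mean, and Nup153, at -0.19 (SE 0.04), with Brg1sh_3364 and Brg1sh_4935.

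In the Ran cycle, with Ranbp2 counted at the cytoplasmic face, 4 of 4 genes were lower with each hairpin, with a median of -0.37 in the mean. Ran itself measured 11.90, 11.83 and 12.00 with Rluc, 11.61 and 11.55 with Brg1sh_3232, 11.43 and 11.32 with Brg1sh_3364, and 11.43 and 11.50 with Brg1sh_4935. All knockdown arrays lay below all controls, at a mean difference of -0.44 (SE 0.05), or 73.9% of the control. Ranbp1, the cytoplasmic helper of GTP hydrolysis, was at -0.39 (SE 0.05). Rcc1, the nuclear exchange factor, was at -0.35 (SE 0.05), and Rangap1, the activating protein at the pore, was at -0.32 (SE 0.04). Signals of the GTPase, its exchange factor, its activating protein and Ranbp1 were thus all lower.

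Exportins carry proteins and small RNAs out of the nucleus, and 5 of 6 genes were lower in the mean, with a median of -0.26. Xpo5, which exports precursor microRNAs, measured 11.19, 11.16 and 11.14 with Rluc, 10.86 and 10.84 with Brg1sh_3232, 10.79 and 10.75 with Brg1sh_3364, and 10.53 and 10.51 with Brg1sh_4935. The groups did not overlap, with Brg1sh_4935 the lowest, and the mean difference was -0.45 (SE 0.03), or 73.2% of the control. Xpo1, the main exporter of proteins with leucine-rich signals, and Cse1l, which returns importin alpha to the cytoplasm, were both at -0.30, with standard errors of 0.05 and 0.04. Xpo4 was at -0.22 (SE 0.04) and called with Brg1sh_3364 and Brg1sh_4935. Xpo7 was at -0.16 (SE 0.04) and called with Brg1sh_4935 alone. Xpo6, the exporter of actin and profilin, was the exception, at 0.04 (SE 0.04) and not called.

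**Figure D3:**
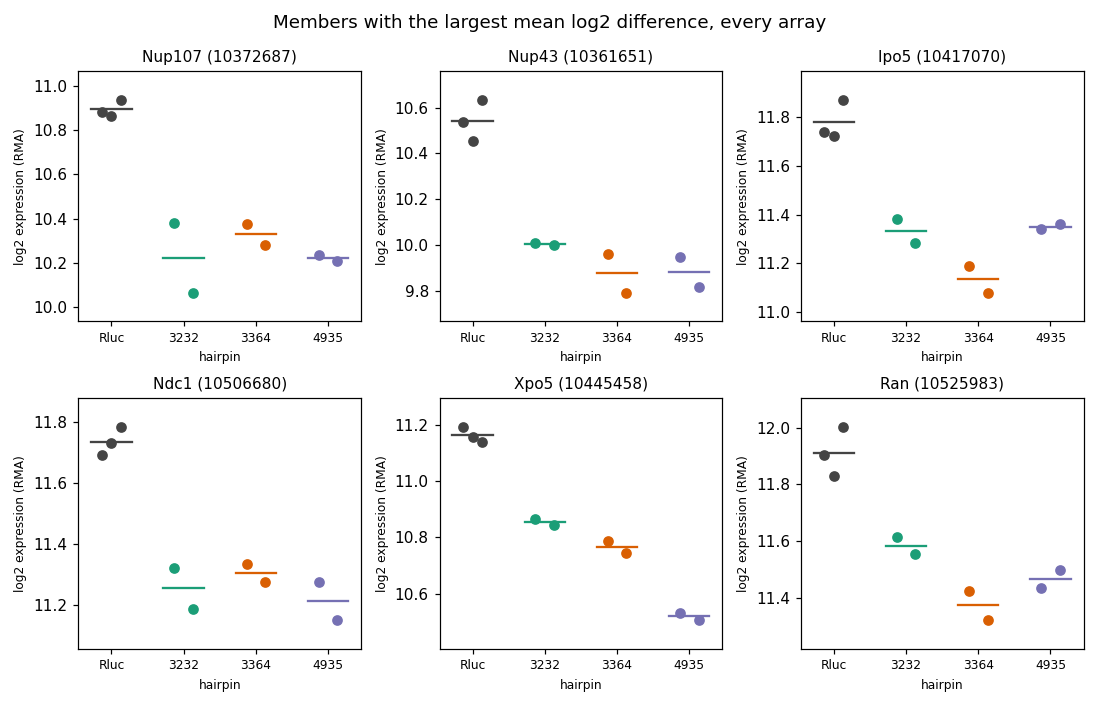
Log2 expression on each array for Nup107, Nup43, Ipo5, Ndc1, Xpo5 and Ran, the 6 genes with the largest mean difference, with each gene on its own axis range that does not start at 0. Points are arrays (3 for Rluc, 2 per hairpin) and bars are group means. In each panel all 6 knockdown arrays lie below the 3 Rluc arrays.

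Among the importins the picture was divided. Importin alpha proteins, the adaptors that read classical import signals, had 2 of 6 genes lower in the mean and a median of -0.11. Kpna3 was lower with each hairpin, at -0.31 (SE 0.04) in the mean. Kpna2, the form most tied to dividing cells, was read by 3 probe sets that the annotation ties to the same transcripts, and they differed: -0.30 and -0.22 were called and -0.11 was not, so its size is uncertain. Kpna4, at -0.13 (SE 0.05), and Kpna1, at -0.09 (SE 0.05), were not called, nor were Kpna6 and the dim Kpna7. Importin beta proteins and transportins, which carry cargo through the channel, had 6 of 11 genes lower in the mean (1 with Brg1sh_3232, 5 with Brg1sh_3364 and 3 with Brg1sh_4935) and a median of -0.14. Ipo5, an importer of ribosomal proteins and histones, measured 11.74, 11.73 and 11.87 with Rluc, 11.38 and 11.28 with Brg1sh_3232, 11.19 and 11.08 with Brg1sh_3364, and 11.34 and 11.36 with Brg1sh_4935. It was the only one of the 11 called with each hairpin, its groups did not overlap, and its mean difference was -0.51 (SE 0.05), or 70.3% of the control. Ipo11 was at -0.27 (SE 0.06), and Kpnb1, the carrier that pairs with importin alpha, was at -0.26 (SE 0.05), with Ipo7 at -0.21 (SE 0.07). Tnpo3, an importer of splicing factors, and Tnpo1 were at -0.16 and -0.14, while Ipo4, Ipo8, Ipo9, Ipo13 and Tnpo2, at -0.11 to 0.05, were not called. Tnpo1 was called in the mean but with no single hairpin. With every row of the array tested, the calls of Tnpo1, Ipo7, Xpo7 and Pom121 in the mean were lost. In all, 20 of 26 nucleoporin genes and 17 of 27 carrier and Ran cycle genes were lower in the mean, and 16 genes were not called. Over all probe sets 14.7% were lower in the mean, and 29.5% when those below the median level were left out. Importin alpha, at 2 of 6 (33.3%), lay near the latter share.

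A contrast that did not serve in choosing the family is that between the hairpins. In limma's moderated F test over the 3 hairpin groups, 5 of 64 probe sets passed an adjusted p under 0.05, where 9.99% of all probe sets did. They were Nup210 (adjusted p = 0.00497), Xpo5 (0.00674), 1 of the 9 Nup210l probe sets (10493640, 0.0307), Nup155 (0.0316) and Nup62 (0.049). The count was 1 without Brg1sh_4935 replicate 2, 2 without either Brg1sh_3364 array, and 3 without either Brg1sh_3232 array, Brg1sh_4935 replicate 1 or Rluc replicate 2. In pairs, 2 probe sets differed between Brg1sh_3364 and Brg1sh_3232, where 9.35% of all did, 2 between Brg1sh_4935 and Brg1sh_3232, where 0.767% did, and 3 between Brg1sh_4935 and Brg1sh_3364, where 7.07% did. The middle count was 0 when any knockdown array was left out and 1 without Rluc replicate 2. That between Brg1sh_3364 and Brg1sh_3232 was 1 without Brg1sh_3232 replicate 1, any Brg1sh_3364 array or any Brg1sh_4935 array, and that between Brg1sh_4935 and Brg1sh_3364 was 0 without any Brg1sh_3364 or Brg1sh_4935 array.

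Nup210, a large membrane glycoprotein of the pore whose promoter holds GC boxes and the E2F-type motif, separated Brg1sh_3232 from the others. It measured 11.92, 11.86 and 11.74 with Rluc, 11.76 and 11.78 with Brg1sh_3232, 11.30 and 11.29 with Brg1sh_3364, and 11.37 and 11.43 with Brg1sh_4935. The Brg1sh_3232 arrays lay within the control range, while the Brg1sh_3364 and Brg1sh_4935 arrays lay below it. It was lower with Brg1sh_3364 than with Brg1sh_3232 by limma (-0.47, SE 0.06, adjusted p = 0.00291), and with Brg1sh_4935 than with Brg1sh_3232 (-0.37, SE 0.06, adjusted p = 0.0378). Xpo5 was lower with Brg1sh_4935 than with Brg1sh_3232 (-0.33, SE 0.05, limma adjusted p = 0.02) and than with Brg1sh_3364 (-0.25, SE 0.05, adjusted p = 0.0155). Nup62 measured 12.17, 12.21 and 12.15 with Rluc, 11.98 and 11.97 with Brg1sh_3232, 12.01 and 11.98 with Brg1sh_3364, and 11.82 and 11.77 with Brg1sh_4935, where it was lower than with Brg1sh_3364 (-0.20, SE 0.05, limma adjusted p = 0.0414). Nup155 was likewise lowest with Brg1sh_4935, with 11.14, 11.14 and 11.17 with Rluc, 10.97 and 10.97 with Brg1sh_3232, 10.90 and 10.91 with Brg1sh_3364, and 10.77 and 10.66 with Brg1sh_4935. None of its pairs passed limma's threshold, with adjusted p-values of 0.479 for Brg1sh_3364 against Brg1sh_3232, 0.0695 for Brg1sh_4935 against Brg1sh_3232 and 0.0654 for Brg1sh_4935 against Brg1sh_3364. The Nup210l probe set was dim, near 7.8, and higher with Brg1sh_3364 than with Brg1sh_3232 (0.43, SE 0.10, limma adjusted p = 0.0309) and lower with Brg1sh_4935 than with Brg1sh_3364 (-0.46, SE 0.10, adjusted p = 0.0264).

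**Figure D4:**
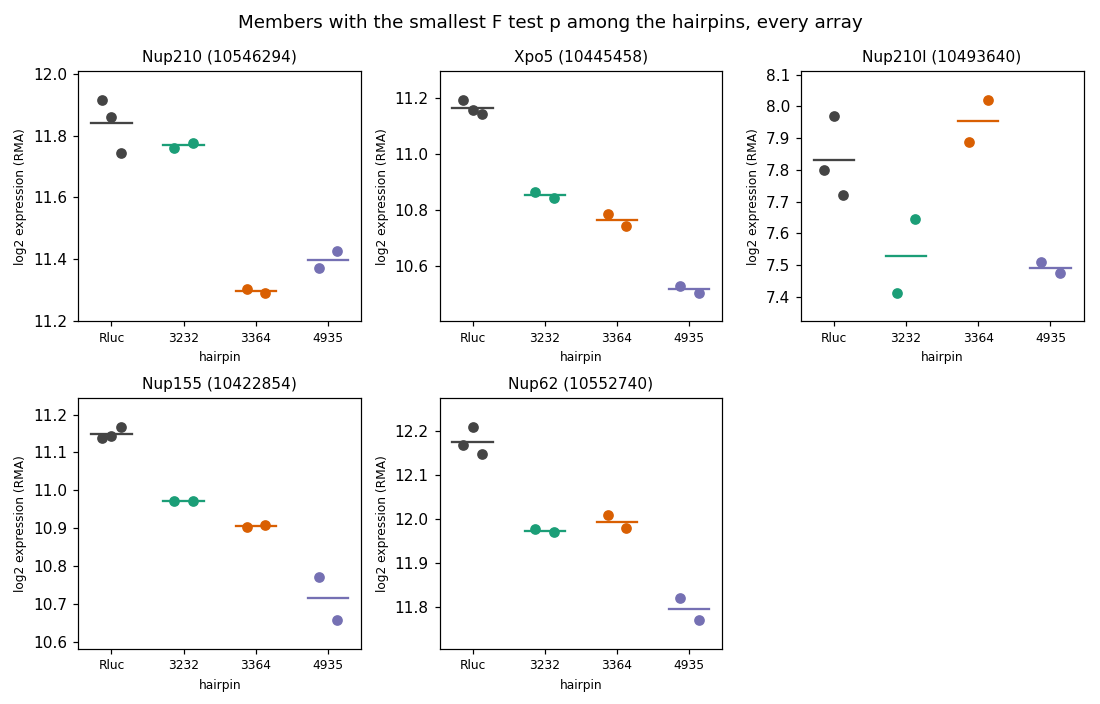
Log2 expression on each array for the 5 probe sets with the smallest F test p among the hairpins, with each gene on its own axis range that does not start at 0. Points are arrays and bars are group means. Nup210 with Brg1sh_3232 sits at the control level and below it with Brg1sh_3364 and Brg1sh_4935, and Xpo5, Nup155 and Nup62 are lowest with Brg1sh_4935.

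For most members no difference between hairpins was detected, with a median 95% half-width of 0.146 on the log2 scale for a difference between a pair of hairpins. Of the 53 genes, 75.5% lay below 0 for Brg1sh_4935 minus Brg1sh_3232 (median -0.07), where 52.0% of all probe sets did. For Brg1sh_3364 minus Brg1sh_3232 it was 66.0% (median -0.05) against 53.1%. For Brg1sh_4935 minus Brg1sh_3364 it was 49.1% (median 0.00) against 48.9%. These shares are a description and were not tested. The difference of Nup107 between Brg1sh_4935 and Brg1sh_3232 was 0.00, with an interval from -0.21 to 0.21, and that of Ndc1 was -0.04, with an interval from -0.19 to 0.11. Ran differed by -0.21 between Brg1sh_3364 and Brg1sh_3232, with an interval from -0.36 to -0.05 and a limma adjusted p of 0.093 that missed the threshold.

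Levels of other genes moved with the hairpins, and their part in the result was not tested. Myc, a transcription factor that acts on many growth genes, measured 12.47, 12.34 and 12.39 with Rluc, 12.05 and 12.23 with Brg1sh_3232, 11.43 and 11.34 with Brg1sh_3364, and 11.86 and 11.86 with Brg1sh_4935, and was called lower with each hairpin. Its differences were -0.26, -1.01 and -0.54. Of 9 proliferation genes, 7 were called lower in the mean, and their summed linear signal was 66647 to 67783 with Rluc and 55903 to 61115 with the hairpins. Of 7 macrophage markers, 6 were called higher, and their summed signal was 11708 to 12204 with Rluc and 19135 to 25229 with the hairpins, where the dimmest were Mertk and Fcgr1.

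Pathway genes outside the symbol rule were read from lists of related functions. In the mean of the hairpins 14.7% of all probe sets were lower and 12.7% higher. Of 17 measured pore and transport genes under other names, 9 were lower and 1 higher in the mean, with 5, 7 and 9 lower and 0, 1 and 1 higher with Brg1sh_3232, Brg1sh_3364 and Brg1sh_4935. Xpot, the exporter of transfer RNA, was at -0.43 (SE 0.04), and Rangrf, a Ran-binding protein, was at -0.38 (SE 0.06). Nupl2, a nucleoporin of the cytoplasmic side, was at -0.34 (SE 0.05), and Nxt2, a cofactor of mRNA export, was higher at 0.17 (SE 0.04). Of 16 mRNA export genes, 8 were lower and 0 higher (limma, mean of the hairpins), with 6, 7 and 5 lower with the hairpins in the same order. They were led by Thoc6 of the THO complex at -0.40 (SE 0.05), the cap-binding gene Ncbp2 at -0.32 (SE 0.06) and Thoc7 at -0.26 (SE 0.05). Of 15 genes of the lamina and nuclear envelope, 3 were lower and 1 higher in the mean, a share of lower calls (20%) near that of all probe sets. By hairpin, 3 were lower and 2 higher with Brg1sh_3232, 1 lower and 4 higher with Brg1sh_3364, and 3 lower and 1 higher with Brg1sh_4935, with medians of -0.07, 0.03 and -0.06. The lamin Lmnb1 was at -0.53, -0.19 and -0.47 in that order and was not called with Brg1sh_3364. Lmnb2 was called lower with each, at -0.37, -0.21 and -0.53. Lemd2, an inner membrane protein, was higher with each, at 0.38, 0.29 and 0.21.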

How the data were processed

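The values were the authors' deposited log2 expression values of 9 Affymetrix arrays, 1 per sample, for which the submitters' processing notes name RMA (version not stated); scanner files, array design and filters were not used here. Probe sets were named through the GEO platform annotation: 21640 had 1 symbol, 1321 several and 11799 none, and only those with 1 symbol were tested. All 64 members matched RefSeq by Entrez ID. R 4.3.3 and limma 3.58.1 fitted group means to the 9 arrays together (5 residual and 3.65 prior degrees of freedom), with Benjamini-Hochberg adjustment over all 21640 and a threshold of 0.05, two-sided; the code was tested on simulated data. SE is that of the fit. RMA gives the arrays a shared distribution of probe signals, which can hide a shift common to all genes. The number of arrays limits the precision.

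Same-numbered arrays deviated together with correlations of -0.07 to 0.23 over 12 pairs, the highest being 0.18 and 0.23 between Brg1sh_3232 and Rluc. With 2 arrays in a hairpin group its deviations mirror each other. The pairs are therefore not separate observations and cannot settle whether the numbers pair the arrays. The main fit took no account of the numbers. Named members were those with the 4 largest mean differences of each role, any called against its role, the 5 smallest F test p-values and Smarca4 and Myc, with up to 3 genes per other list; further names were chosen after their values were seen. The members and lists were chosen with earlier results of these data known. Alternatives covered the normalization, centring, features tested, dim probe sets, variance model, replicate block, threshold, samples fitted and each array left out.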

Additional observations from a re-analysis of the deposited data

Results flagged for a closer look

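The pairs of hairpins that differed in their effect on a member were these, each by limma's test of the difference itself. Nup210 was lower with Brg1sh_3364 than with Brg1sh_3232 by -0.47 (adjusted p = 0.00291) and with Brg1sh_4935 than with Brg1sh_3232 by -0.37 (limma adjusted p = 0.0378). Xpo5 was lower with Brg1sh_4935 than with Brg1sh_3232 by -0.33 (limma adjusted p = 0.02) and than with Brg1sh_3364 by -0.25 (adjusted p = 0.0155). Nup62 was lower with Brg1sh_4935 than with Brg1sh_3364 by -0.20 (limma adjusted p = 0.0414). The dim Nup210l probe set 10493640 was higher with Brg1sh_3364 than with Brg1sh_3232 by 0.43 (limma adjusted p = 0.0309) and lower with Brg1sh_4935 than with Brg1sh_3364 by -0.46 (adjusted p = 0.0264). Each hairpin had 2 arrays, so an array that stands apart could not be looked for within a hairpin.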

How the results depend on the processing

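No member called in the mean of the hairpins changed direction under the alternatives that refit that mean; fits of 1 hairpin with Rluc gave counts only. The count of members lower in the mean of the hairpins was 39, where 14.7% of all probe sets were lower. With the 3 hairpin means as replicates it was 28, where 7.03% of all were. The median of -0.211 ranged from -0.253 with arrays centred on their medians to -0.199 when an array was left out. The replicate block left the count at 39 (4 calls lost, 4 gained), where 12.3% of all were lower, and gave 21 for Brg1sh_3232. With a threshold of 0.01, 9.74% of all probe sets were lower in the mean. At an adjusted p under 0.01 the counts were 14 lower with Brg1sh_3232, 19 with Brg1sh_3364, 2 in the F test, and 1, 0 and 0 for Brg1sh_3364 against Brg1sh_3232, Brg1sh_4935 against Brg1sh_3232 and Brg1sh_4935 against Brg1sh_3364. Testing every row of the deposited table gave 2, 1, 0 and 1 in the same order from the F test on. Median centring gave 5 for Brg1sh_4935 against Brg1sh_3364, and for Brg1sh_3364 against Brg1sh_3232 the count was 1 with 1 probe set per gene and 4 without dim probe sets. With Brg1sh_3232 and Rluc fitted alone, 17 were lower. Leaving out each array gave 17 to 28 lower with Brg1sh_3232, 19 to 34 with Brg1sh_3364, 24 to 36 with Brg1sh_4935, 1 to 5 in the F test, 1 to 3, 0 to 2 and 0 to 4 for the pairs. A group left with 1 array is assumed to vary like the others. The cause of these changes was not tested, beyond fewer arrays or more features. Over all probe sets, higher calls were 46.4% of calls in the mean, and 35.8% with arrays centred on their medians.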
